A study of Mus musculus with 4 samples.

Results

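Fibroblasts of the mouse pituitary are described here: 344 cell barcodes of 40044 that passed the cell filters, out of 40406 in the count matrix, or 0.859% of those kept (exact Clopper-Pearson 95% interval 0.771 to 0.954%, counting error only). A barcode was chosen as a fibroblast by the expression of marker genes. It needed at least 500 UMIs (counted transcript molecules), at most 25% mitochondrial UMIs and less than 25% of UMIs from Gh, and at least 3 of Col1a1, Col1a2, Dcn, Lum and Pdgfra. It could carry at most 1 of the endothelial genes Pecam1, Plvap, Cdh5, Kdr and Emcn, and at most 1 of the stem cell genes Sox2, Sox9, Aldh1a2 and Cyp2f2. Because these values chose the cells, every level below is a description without a test.

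The pituitaries came from male mice that were 4 weeks old at the start and were then fed a high-fat diet (HFD) or a normal diet (ND) for 12 weeks. There were 2 HFD and 2 ND libraries, each from 3 pooled pituitaries that were dissociated with enzymes and run on the 10x Genomics 3' platform. Neither strain nor genotype was given in the sources used here. Every library is also labelled with a gonadotroph cell line (Lbt2), although the matrix holds many cell types. The barcodes carry suffixes 1 to 4, about 10000 barcodes each, and which suffix holds which library is not given in the sources used here. All barcodes were therefore read as 1 pooled sample, HFD was not compared with ND, and the suffixes serve only to show how stable a value is. Total UMIs per suffix lay between 81621358 and 92665029.

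Fibroblasts are the connective tissue cells that build and remodel extracellular matrix. They secrete fibrillar collagens, the small proteoglycans that space collagen fibrils and the microfibrils that carry elastin. They also make complement proteins, chemokines and growth factors that neighbouring vessels and immune cells read. In the pituitary they are a minority among hormone cells, endothelial cells and the Sox2-positive stem or folliculostellate cells.

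The fibroblasts numbered 66, 81, 120 and 77 in suffixes 1 to 4, which is 0.653, 0.816, 1.19 and 0.779% of the kept barcodes of each. The share was highest in suffix 3 (interval 0.983 to 1.42%) and lowest in suffix 1 (0.505 to 0.830%). These intervals cover counting error only, and a difference between suffixes was not tested. Their median depth was 3585 UMIs, against 7611 UMIs over all kept barcodes. One member shared its barcode sequence with another suffix, and 313 barcodes of the whole matrix did so.

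The label was set beside genes that the choice had not used, in the same cells. Their list was drawn up with earlier results of these data known, so this is not an independent check. Of 18 further fibroblast markers 17 could be tested, and 15 were at least 2-fold higher in the fibroblasts than in both endothelial cells (1139 barcodes) and stem or folliculostellate cells (1659 barcodes), in the pooled sums and in each suffix. By this rule 3.50% of all 16579 tested genes were higher and 4.10% were lower, and nothing is read from these shares because expression chose the cells. Another class, gated on mural markers (pericytes and smooth muscle), held 11 barcodes, which also carried stem cell genes. With it included 1.99% of tested genes were higher in the fibroblasts, and 11 of the further markers.

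The chosen genes had these levels, in CPM (a gene's UMIs scaled by the class's UMI total). Dcn, encoding the collagen-binding proteoglycan decorin, had 5641, 7489, 8837 and 6406 CPM in the fibroblasts of suffixes 1 to 4, against 27.6 CPM in endothelial and 1.12 CPM in stem or folliculostellate cells. Col1a1, the alpha-1 chain of type I collagen, had 676, 759.5, 592 and 689 CPM in the fibroblasts, against 0.465 and 0.145 CPM in the same 2 classes. Its partner chain Col1a2 had 1085 CPM in the fibroblasts (exact Poisson 95% interval 1034 to 1138), against 44.6 CPM in endothelial and 78.6 CPM in stem or folliculostellate cells. Lum (lumican, another collagen-binding proteoglycan) had 1026 CPM and Pdgfra (the alpha receptor for platelet-derived growth factor) 437 CPM in the fibroblasts, and both were below 1 CPM in the other 2 classes. The choice set these levels on both sides, since barcodes of the other 2 classes could carry at most 1 of the 5 genes.

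Of the members, 166 carried all 5 chosen genes, 81 carried 4 and 97 carried 3. Members just inside the threshold, with 3 genes, had a median of 3033 UMIs, and of genes outside the choice they had 581 CPM of Col3a1, 3349 CPM of Apod and 4284 CPM of Mgp. The 169 barcodes just outside it, with 2 genes, had a median of 8016 UMIs, 58.1 CPM of Col3a1, 207 CPM of Apod and 325 CPM of Mgp, and UMIs of 7 pituitary hormone genes were far more frequent in them than the 2.57% in the members with 3 genes. Of the 658 barcodes with at least 3 of the chosen genes, 243 had more than 1 endothelial gene, 89 had more than 1 stem cell gene and 46 had too much Gh.

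Apod, which the choice had not used, was seen in 90.4% of fibroblasts, against 1.32% of T and NK cells (454 barcodes, median 2299.5 UMIs) and 1.6% of barcodes with at least 25% Gh (median 10502.5 UMIs). Gh was seen in 100% of fibroblasts and 100% of T and NK cells, Prl in 98.5% and 98.9%, and Pomc in 74.1% and 74.4%. Nearly every cell of both classes carried Gh and Prl, so these shares could not show an excess in either class. Hormone UMIs were unequal among the fibroblasts, with a median of 14.8% in 47 of them (subset 3).

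**Figure D1:**
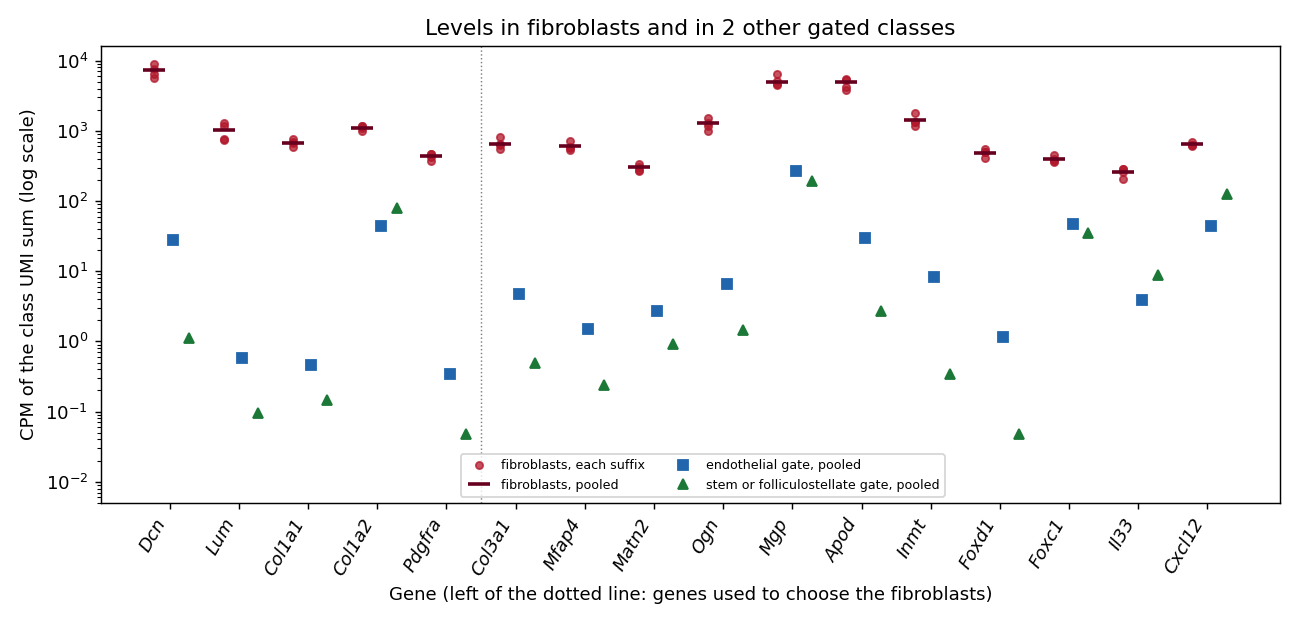
Level of 16 genes in CPM (log axis). Red points are the fibroblasts of each of the 4 barcode suffixes, dark dashes their pooled value, blue squares endothelial cells and green triangles stem or folliculostellate cells. For Mgp the fibroblasts reached 4987 CPM, against 267 and 190 CPM in the other 2 classes, and for Foxd1 478 CPM, against 1.16 and 0.0485 CPM.

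Extracellular matrix genes made up a larger share of transcripts in the fibroblasts than in endothelial or stem or folliculostellate cells. The 169 genes of 9 matrix lists took 4.49% of the fibroblasts' UMIs, against 1.11% in endothelial and 0.888% in stem or folliculostellate cells. These shares include Dcn, Lum, Col1a1 and Col1a2, so the choice of cells set a part of the gap. Over the suffixes the fibroblast share lay between 4.05 and 4.81%, so the 4 suffixes were close together and far from either other class. Without the genes that chose the cells, 75 of the 147 tested matrix genes were at least 2-fold higher than in both other classes, and 43 were with the mural class included. Each list count that follows is over both classes, with the mural class left out. Where no lower count is given, no tested gene of the list was lower.

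Among fibrillar collagens 4 of 9 tested genes beyond the chosen ones were higher and 1 was lower. Col3a1, whose product co-assembles with type I collagen in pliable tissue, had 810.0, 620.2, 646 and 543 CPM in the fibroblasts of suffixes 1 to 4, against 4.76 CPM in endothelial and 0.485 CPM in stem or folliculostellate cells. The 4 suffixes lay together, far above both classes. Col5a1 and Col5a2, chains of the type V collagen that nucleates fibrils, had 80.8 and 74.4 CPM in the fibroblasts against 1.51 and 1.63 CPM in endothelial cells.

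Non-fibrillar collagens were higher in 9 of 12 tested genes. Type VI collagen forms beaded filaments around cells, and its chains Col6a1 and Col6a2 had 392 and 233 CPM in the fibroblasts, against 4.30 and 2.90 CPM in endothelial cells. Col14a1, a collagen that sits on fibril surfaces, had 82.7 CPM in the fibroblasts, against 2.90 CPM in endothelial cells. Col13a1, a membrane collagen, was the opposite case, with 113 CPM in the fibroblasts and 111 CPM in endothelial cells.

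Basement membrane genes divided into fibroblast and shared ones, with 6 of 16 tested higher and 1 lower. Lama2, the laminin chain of muscle and nerve basement membranes, had 468, 382, 418 and 426 CPM in the fibroblasts of suffixes 1 to 4, against 3.60 CPM in endothelial and 0.194 CPM in stem or folliculostellate cells. Nid1, which links laminin to collagen IV, had 593 CPM in the fibroblasts, against 113 CPM in endothelial cells, a ratio of 5.25. The main collagen IV chains were level with endothelial cells instead. Col4a1 had 483 CPM in the fibroblasts and 498 CPM in endothelial cells, and Col4a2 had 258 and 277 CPM. Col4a5 differed from them, with 201 CPM in the fibroblasts, against 3.48 CPM in endothelial cells.

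Proteoglycans were higher in 11 of 17 tested genes beyond the chosen ones. Ogn (osteoglycin) had 1002, 1527, 1285 and 1177 CPM in the fibroblasts of suffixes 1 to 4, against 6.50 CPM in endothelial and 1.45 CPM in stem or folliculostellate cells. Bgn (biglycan) had 917 CPM in the fibroblasts, against 187 CPM in endothelial cells. Gpc3, a membrane proteoglycan that binds growth factors, had 813.5 CPM in the fibroblasts, against 12.8 and 32.7 CPM in the other 2 classes. These genes encode products of different kinds, secreted and membrane bound, and their levels are set only against the same gene in another class.

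Elastic fibre genes were higher in 11 of 16 tested genes. Mfap4, a microfibril-associated protein, had 564, 705, 585 and 534 CPM in the fibroblasts of suffixes 1 to 4, against 1.51 and 0.242 CPM in the other 2 classes. Efemp1 and Fbln1, both of the fibulin family, had 792 and 418 CPM in the fibroblasts, against 33.7 and 10.6 CPM in endothelial cells. Ltbp1, which tethers latent TGF-beta, reached 280 CPM in the fibroblasts but also 166 CPM in endothelial cells.

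Genes of collagen processing were higher in 8 of 24 tested. Pcolce, which speeds the trimming of procollagen, had 459 CPM in the fibroblasts, against 18.8 CPM in endothelial cells. Loxl1 and Lox, which cross-link elastin and collagen, had 283 and 94.9 CPM in the fibroblasts, against 26.0 and 2.32 CPM in endothelial cells. The collagen chaperone Serpinh1 had 679.5 CPM in the fibroblasts, against 308 CPM in endothelial cells, and Sparc 1459 against 935 CPM. Neither met the 2-fold rule in every suffix and class.

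Matricellular genes, whose products modulate the matrix rather than build it, were higher in 12 of 22 tested genes and lower in 1. Mgp, an inhibitor of calcification, had 6351, 5161, 4592 and 4554 CPM in the fibroblasts of suffixes 1 to 4, against 267 and 190 CPM in the other 2 classes, 18.7-fold and 26.2-fold. Matn2, a filament-forming adaptor, had 301 CPM in the fibroblasts, against 2.67 CPM in endothelial cells. Ccn1, an adhesive protein induced by growth factors and shear, was the lower one, with 140 CPM in the fibroblasts, against 496 and 1013 CPM in the other 2 classes.

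Matrix proteases were higher in 10 of 19 tested genes and their inhibitors in 4 of 12. Mmp2 (gelatinase A) had 172 CPM in the fibroblasts, against 1.97 CPM in endothelial cells. Htra3, a secreted serine protease, had 347, 249, 167 and 235 CPM in the fibroblasts of suffixes 1 to 4, against 3.02 CPM in endothelial cells. Timp2 had 524 CPM in the fibroblasts, against 104 CPM in endothelial cells, whereas Timp3 had 1420 CPM in the fibroblasts and 1738 CPM in endothelial cells.

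**Figure D2:**
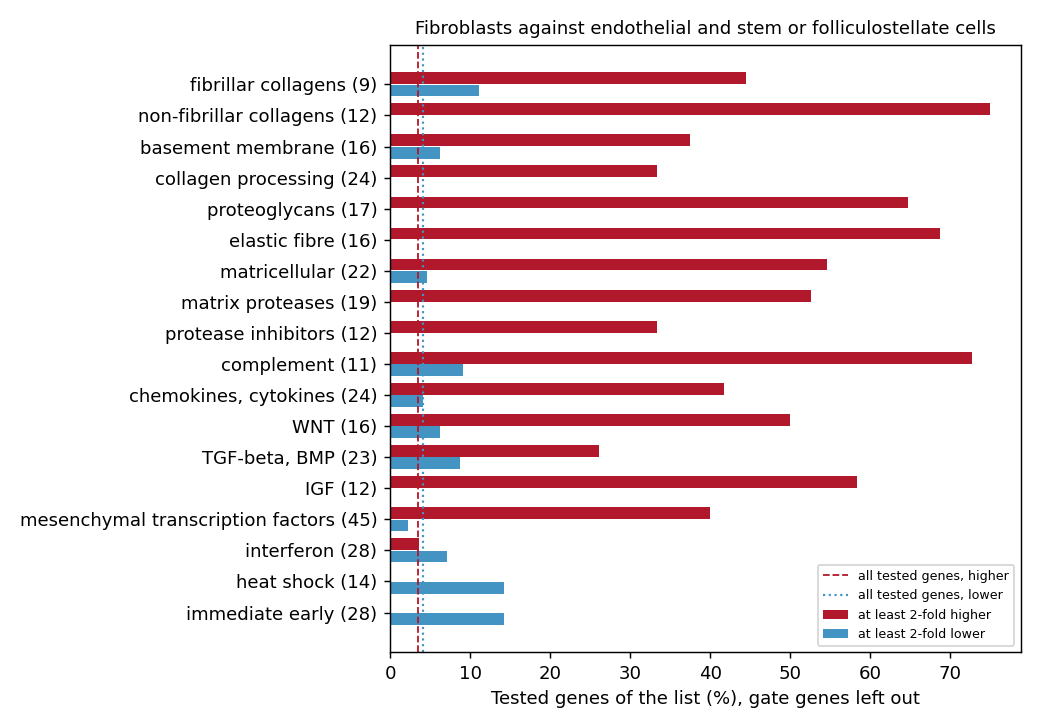
Share of the tested genes of 18 lists (number tested in brackets, genes that chose or excluded cells left out) that were at least 2-fold higher (red) or lower (blue) in fibroblasts than in endothelial and stem or folliculostellate cells, in the pooled sums and each suffix. The vertical lines mark the shares over all tested genes, 3.50% higher and 4.10% lower. In the bottom rows no heat shock or immediate early gene was higher.

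Beyond structure, complement genes were higher in 8 of 11 tested, and 1 was lower. Serping1, which inhibits the C1 proteases, had 1019, 1527, 1248 and 1071 CPM in the fibroblasts of suffixes 1 to 4, against 16.7 CPM in endothelial and 4.56 CPM in stem or folliculostellate cells. Each suffix lay far above both other classes. The C1 proteases themselves, C1s1 and C1ra, had 194 and 104 CPM in the fibroblasts, against 4.30 and 1.86 CPM. C3, the central component, was uneven, with 50.1, 10.9, 25.3 and 122 CPM in suffixes 1 to 4, and 5.81% of fibroblasts carried it.

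Chemokines and cytokines were higher in 10 of 24 tested genes and lower in 1. Cxcl12, which retains and guides leukocytes, had 622, 702, 629 and 606 CPM in the fibroblasts of suffixes 1 to 4, against 43.8 CPM in endothelial and 125 CPM in stem or folliculostellate cells. The suffixes agreed closely. Il33, an alarmin stored in the nucleus, had 262 CPM in the fibroblasts, against 3.95 and 8.82 CPM. Ccl19, which draws cells that carry Ccr7, had 149 CPM in the fibroblasts, against 0.929 CPM in endothelial cells. The interferon-induced Cxcl10 went the other way against endothelial cells, with 254.5 CPM in the fibroblasts and 543 CPM in endothelial cells.

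Growth factor genes were described by family, and 7 of 12 tested genes of the IGF list were higher. Igfbp2, Igfbp4 and Igfbp6 had 412, 684 and 684 CPM in the fibroblasts, against 11.8, 97.2 and 18.2 CPM in endothelial cells. Igf1, the ligand, had 135 CPM in the fibroblasts, against 17.7 CPM in endothelial cells. Igfbp5 did not meet the rule, with 3262 CPM in the fibroblasts, 2179 CPM in endothelial cells and 5187 CPM in stem or folliculostellate cells.

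In the WNT list 8 of 16 tested genes were higher and 1 was lower. Sfrp4, a secreted WNT antagonist, had 296, 516, 275 and 321 CPM in the fibroblasts of suffixes 1 to 4 and below 1 CPM in the other 2 classes. Rspo3, which amplifies WNT signals, had 94.9 CPM and Wnt5a, a ligand of the non-canonical branch, 83.3 CPM in the fibroblasts, against 10.2 and 13.3 CPM in stem or folliculostellate cells. In the TGF-beta and BMP list 6 of 23 were higher and 2 lower. The ligand Bmp4 had 131 CPM in the fibroblasts, against 7.90 CPM in endothelial cells.

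Among receptors 5 of 15 tested genes beyond Pdgfra were higher and 1 was lower. Pdgfrb, the beta receptor for platelet-derived growth factor, which pericytes also carry, had 476, 369, 366 and 385 CPM in the fibroblasts of suffixes 1 to 4, against 16.4 CPM in endothelial cells. Pdgfra and Pdgfrb were seen together in 173 fibroblasts, Pdgfra alone in 61 and Pdgfrb alone in 55. Mrc2, which takes up collagen, had 242 CPM in the fibroblasts, against 2.32 CPM in endothelial cells.

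Retinoid and steroid genes were higher in 6 of 22 tested genes and lower in 1, leaving out a gene that excluded cells. Cyp1b1, an oxidase of steroids and retinoids, had 189 CPM in the fibroblasts, against 1.05 CPM in endothelial cells. Adh1, an alcohol and retinol dehydrogenase, had 133 CPM in the fibroblasts, against 0.581 CPM in endothelial cells. Ghr, the receptor for growth hormone, had 57.1 CPM in the fibroblasts, against 16.6 CPM in endothelial and 24.1 CPM in stem or folliculostellate cells.

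Of the mesenchymal transcription factor list 18 of 45 tested genes were higher and 1 was lower. Foxd1, a forkhead factor which in mouse kidney marks stromal progenitors, had 501, 549, 411 and 501 CPM in the fibroblasts of suffixes 1 to 4, against 1.16 CPM in endothelial and 0.0485 CPM in stem or folliculostellate cells. It was seen in 78.2% of fibroblasts and in 0.220% of T and NK cells. Foxc1, another forkhead factor, which mouse meninges need to form, had 391 CPM in the fibroblasts, against 47.4 and 34.9 CPM. Both genes were seen in 212 fibroblasts, Foxd1 alone in 57, Foxc1 alone in 39 and neither in 36. A further forkhead gene, Foxp1, differed less between classes, with 417 CPM in the fibroblasts, 328 CPM in endothelial and 178 CPM in stem or folliculostellate cells. The nuclear receptor Nr2f2 had 892 CPM in the fibroblasts, against 212 and 137 CPM.

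The 15 Hox genes of the list, which mark the position of trunk fibroblasts, had 0 UMIs in all 344 fibroblasts, which allows up to 3 UMIs of each among the 1559894 counted. Only 1 of them had enough UMIs in another class to be tested, and it counted as lower. The whole list summed to only 1.28 CPM in endothelial and 1.89 CPM in stem or folliculostellate cells. At such levels few UMIs could be seen in the fibroblasts at all, so nothing is read from this call. In the list of genes known from brain meninges 10 of 14 tested genes were higher. The list summed to 3610 CPM in the fibroblasts, against 2565 CPM in endothelial and 1922 CPM in stem or folliculostellate cells. In subsets 1 to 4, described below, the sum was 1850, 3591, 5556 and 4700 CPM, highest in the hormone-rich subset 3. Cldn11, a tight junction protein of myelin and of the arachnoid layer, had 302 CPM in the fibroblasts, against 0.581 and 1.02 CPM. Zic1, a zinc-finger factor of dorsal neural tissue and meninges, had 80.8 CPM in the fibroblasts, against 0.465 CPM in endothelial cells.

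The 15 genes with the highest ratio over every other class, at 100 or more UMIs, were Lum, Pdgfra, Mfap4, Sfrp4, Dcn, Foxd1, Cpxm1, Dpep1, Cemip, Apod, Cldn11, Inmt, Itih2, Adh1 and Pi16. Lum, Pdgfra and Dcn are chosen genes, so the choice set their place among the 15. Apod, a lipid-carrying lipocalin, had 3875, 5377, 5420.0 and 4183 CPM in the fibroblasts of suffixes 1 to 4, against 29.6 CPM in endothelial cells. Inmt, an indole methyltransferase, had 1419 CPM and Dpep1, a membrane dipeptidase, 731 CPM in the fibroblasts, against 8.36 and 2.79 CPM in endothelial cells. Cemip and Itih2, which cut and bind hyaluronan, had 412 and 186 CPM in the fibroblasts, against 1.39 and 0.929 CPM.

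None of 28 immediate early genes and none of 14 heat shock genes met the rule upward, while 4 and 2 met it downward. Over all tested genes 3.50% met it upward and 4.10% downward. In lists this short, a count of 0 upward is near the share over all tested genes. The 4 were Atf3, Ier2, Maff and Nr4a3 and the 2 were Dnajb1 and Hspb1, named because so few were counted. Fos had 4708 CPM in the fibroblasts, against 5901 and 9559 CPM, and Atf3 had 283 CPM, against 1664 and 3684 CPM. Of 28 interferon genes 2 were lower and 1 was higher, Ifitm1, with 444 CPM in the fibroblasts, against 13.5 CPM in endothelial cells. These counts are too small to set apart from the shares over all tested genes. In the myofibroblast list 5 of 9 tested genes were higher and 0 lower. With the small mural class included, only 1 was higher. Of its 14 genes, 4 had 0 UMIs in the fibroblasts. Its genes summed to 1287 CPM in the fibroblasts, against 275 CPM in endothelial and 377 CPM in stem or folliculostellate cells. The myofibroblast marker Acta2, outside the gene-naming rule, had 20.5 CPM in the fibroblasts, and Tagln 213, 639, 265 and 346 CPM in suffixes 1 to 4.

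Endothelial genes were unevenly left among the fibroblasts. Emcn, a surface sialomucin of capillaries and veins, had 143 UMIs in 87 fibroblasts, and Cdh5, the junction protein VE-cadherin, had 74 UMIs in 43. Pecam1, Plvap and Kdr together had 8 UMIs. The choice allowed only 1 endothelial gene in a barcode, so that none carried Emcn and Cdh5 together. It excluded 18 barcodes that had exactly 2 endothelial genes and would otherwise have been members, 3 of them with Emcn and Cdh5. Emcn was at 91.7 CPM in the fibroblasts, against 750 CPM in endothelial cells, and was seen in 25.3% of fibroblasts but 1.98% of T and NK cells.

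The fibroblasts varied among themselves. Clustering of the 344 cells alone gave 4 subsets, of 189, 80, 47 and 28 cells, numbered by size. The genes that define them are a description, since the same values made the clusters.

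Subset 1, with 189 cells, was led by Ccl7, Ccl19, Crabp1 and Angptl1 among others, by ratio over the other fibroblasts. Ccl7 was carried by 4.76% of its cells, Crabp1 by 12.2% and Angptl1 by 28.6%, so these levels came from a minority of the subset. Ccl19 had 314 CPM in its cells, against 33.8 CPM in the other fibroblasts, and 57.1% of them carried it. Crabp1, which binds retinoic acid, had 158 CPM there, against 18.6 CPM, and Angptl1, a secreted angiopoietin-like protein, 157 against 24.0 CPM. Mfap4, Dpep1 and Ifitm1 were also high in it, and 66 of the 87 cells with Emcn belonged to it.

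Subset 2, with 80 cells, was led by Ccn3, Ecrg4, Slc4a10, Fxyd5 and Slc26a7 beside macrophage genes. Slc4a10, a bicarbonate transporter of brain barriers, had 472 CPM in its cells, against 11.9 CPM in the other fibroblasts, and 51.2% of them carried it. Slc26a7, an anion transporter, had 212 CPM there, against 5.54 CPM. Sfrp4 had 1435 CPM, Igfbp6 2425 CPM and Mfap5 600 CPM in subset 2, and in subset 1 they had 97.8, 357 and 106 CPM. Cells of subset 2 carried a median of 3 of the 5 chosen genes, against 5 in subsets 1 and 4. With at least 4 of the 5 genes required, the pooled level of Sfrp4 was 179 CPM in place of 346 CPM, that of Igfbp6 441 CPM in place of 684 CPM, that of Rspo3 58.3 CPM in place of 94.9 CPM and that of Slc4a10 32.0 CPM in place of 99.4 CPM. Of the 43 cells with Cdh5, 34 belonged to subset 2. H2-Ab1, C1qa, Cd74, Ccl4 and H2-Aa also ranked among its first 10 genes, but 604 of their 628 UMIs there came from 8 cells that each carried at least 3 macrophage markers.

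Subset 4, with 28 cells, was led by Spp1, Fbln2, Ptgds, Cemip and Col15a1. Spp1 (osteopontin) had 8314 CPM in its cells, against 273 CPM in the other fibroblasts, and all of them carried it. Cemip was carried by 92.9% of its cells, Col15a1 by 75% and Fbln2 by 67.9%, but Ptgds by 21.4%. Col15a1, a collagen next to basement membranes, had 1377 CPM there, against 145 CPM, and Lum 5110 against 819 CPM. Matrix genes took 7.77% of the UMIs of subset 4, the highest of the subsets, against 5.97% in subset 1, 5.02% in subset 2 and 1.99% in subset 3. Dcn, Lum, Col1a1 and Col1a2 count among these matrix genes. The 5 chosen genes summed to 24731 CPM in subset 4, against 14635, 10271 and 4270 CPM in subsets 1, 2 and 3. None of its cells was marked as a doublet by Scrublet, a caller of barcodes that look like mixtures. By suffix it was uneven, with 11, 1, 10 and 6 cells in suffixes 1 to 4. Barcodes outside the fibroblasts with 3 pituicyte (posterior lobe glia) markers numbered 90, 7, 53 and 58 in the same suffixes. The 7 pituicyte markers summed to 410 CPM in subset 4, against 143, 50.5 and 57.0 CPM in subsets 1, 2 and 3, and the 6 Schwann cell markers to 119 CPM, against 32.6, 10.1 and 38.6 CPM. Subset 4 held 75533 UMIs in all, so both of its sums rest on few UMIs. The part of pituicytes and Schwann cells in subset 4 was not tested.

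Subset 3, with 47 cells, was led by genes of hormone cells, not of fibroblasts. Prl had 98737 CPM in its cells, against 2637 CPM in the other fibroblasts, and the granule protein gene Chgb 5536 against 144 CPM. Its cells had a median of 10932 UMIs and 14.8% hormone UMIs, and Scrublet marked 22 of them, against 4, 3 and 0 in subsets 1, 2 and 4. Dcn was still at 3004 CPM in it. These cells held 34.8% of all fibroblast UMIs. In the other 297 cells Dcn had 9854 CPM, Col1a1 906 CPM and Foxd1 646 CPM, above their pooled levels. The reverse held for immediate early and heat shock genes, which summed to 28519 and 11799.9 CPM in subset 3 and to 24057 and 10479 CPM over all fibroblasts. Subset 1 was close to subset 3, with 27027 and 11096 CPM. Lower sums were found in subset 2, with 11137 and 7556 CPM, and in subset 4, with 17410 and 7202 CPM. In those 297 cells matrix genes took 5.83% of UMIs.

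Foxd1 was seen in each of the 3 other subsets, with 590 CPM in subset 1, 815 CPM in subset 2 and 463 CPM in subset 4. Foxc1 had 433, 697 and 490 CPM in the same order. Zic1 had 49.7, 246 and 106 CPM and Pi16, a marker of adventitial fibroblasts in other mouse organs, 60.6, 411 and 543 CPM. The Zic1 and Pi16 levels of subset 4 rest on few of the 75533 UMIs of that subset. A list of adventitial fibroblast genes summed to 961, 1829 and 1589 CPM in the same order. Over all fibroblasts 4 of its 13 tested genes were higher and 1 was lower. Its sum there was 996 CPM, against 1030 CPM in endothelial cells. Immediate early genes were lower in subset 2, with a summed 11137 CPM over 28 genes, against 27027 CPM in subset 1.

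**Figure D3:**
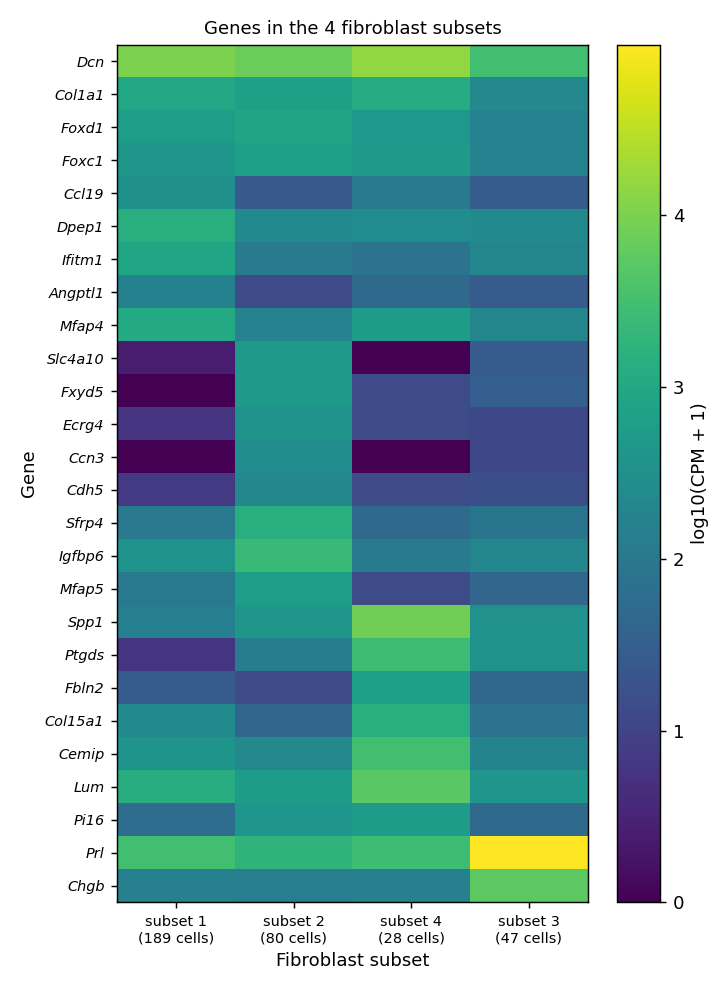
Level of 26 genes in the 4 fibroblast subsets, as log10 of CPM plus 1. Columns are subsets, with the hormone-rich subset 3 at the right. Dcn, Foxd1 and Foxc1 run through every column, while Slc4a10, Fxyd5 and Ccn3 stand out in subset 2, Spp1, Cemip and Fbln2 in subset 4, and Prl and Chgb in subset 3.

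The suffixes differed in the mix of subsets. Subset 1 was the largest in each, with 48.5, 56.8, 58.3 and 53.2% of the fibroblasts of suffixes 1 to 4. Subset 2 took 22.7, 35.8, 17.5 and 19.5%, highest in suffix 2. Some levels differed along with the mix. Spp1 had 989.5, 126, 867 and 653 CPM in suffixes 1 to 4, lowest where subset 4 had 1 cell, and Sfrp4 and Igfbp6 (676, 1079, 526 and 548 CPM) were highest in suffix 2. Hormone genes took 7.53, 3.36, 8.33 and 10.6% of fibroblast UMIs in suffixes 1 to 4, lowest in suffix 2, where subset 3 held 6.17% of the cells.

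**Figure D4:**
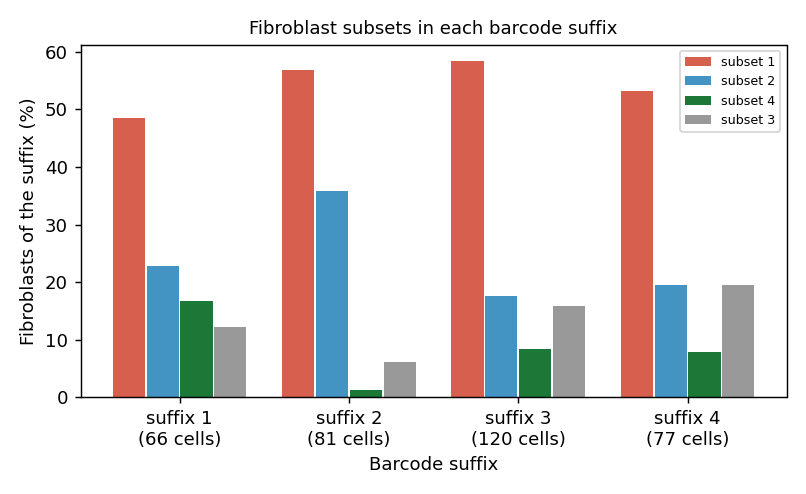
Share of the fibroblasts of each barcode suffix (66, 81, 120 and 77 cells) in each of the 4 subsets, in percent. Subset 1 is the tallest bar in every suffix, and subset 4 has 1.23% in suffix 2, against 16.7% in suffix 1.

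Single barcodes weighed on a few genes. The pericyte gene Rgs5 had 185 UMIs in the fibroblasts, of which 149 lay in 2 cells, in suffixes 3 and 1, that each carried 7 of 8 mural markers. One cell of suffix 2 held 961 of the 1857 UMIs of Cga, the shared hormone subunit. Of 279 UMIs of C1qa, C1qb and C1qc, 263 lay in the 13 fibroblasts with at least 3 macrophage markers. Levels of these genes in the pooled fibroblasts are thus those of a few barcodes. Cga had 1190.5 CPM with all suffixes and 308 CPM without suffix 2, C1qa 70.5 and 12.6 CPM likewise, and Rgs5 119 CPM with all suffixes and 53.8 CPM without suffix 3.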

How the data were processed

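The deposited matrix holds UMI counts per gene and barcode, unnormalized, which the authors made with Cell Ranger (version 8.0.1 per the file headers; Seurat is also named in the submitters' processing notes). The genome build was not given in the sources used here. Members and gene lists were chosen with earlier results of these data known. UMIs were summed per class and suffix and expressed as CPM, with exact Poisson 95% intervals, so intervals cover counting error only. Levels of different genes are not ranked against each other. A gene was tested with at least 20 UMIs in the fibroblasts or another class and counted at 2-fold in the pooled sums and in each suffix. Endothelial cells had at least 3 of their 5 genes and at most 1 fibroblast gene, stem or folliculostellate cells at least 3 of 4 and at most 1 of either other set. The endothelial gate did not exclude stem cell genes, and its sums hold 186 CPM of Aldh1a2. The mural gate held 11 barcodes, so the list counts leave it out, a choice made after seeing the data.

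Members were clustered with scanpy 1.11.5 and the Leiden method of igraph 0.11.9 (1000 variable genes, 20 principal components, 15 neighbours, resolution 0.5). Scrublet ran per suffix. Its automatic threshold marked 0 barcodes in suffixes 1 and 3, so a common score threshold of 0.15 was used, and 29 members were marked but kept. Genes are named by fixed rules: the chosen genes, in each list up to 4 with the highest CPM and up to 3 with the highest ratio over the other classes, the list gene with the widest span over suffixes, the 15 leading genes overall and the first 10 of each subset. Acta2, C1qb, Ccn1, Atf3, Ier2, Maff, Nr4a3, Dnajb1 and Hspb1 were named after their values were seen. A few genes that the rules name are not reported here. The counting and calling step was tested on simulated data.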

Additional observations from a re-analysis of the deposited data

How the results depend on the processing

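The share of fibroblasts was 0.617% with at least 4 of the 5 genes and 0.742% without the hormone-rich subset, and lay between 0.749 and 0.929% when suffixes were left out 1 at a time, lowest without suffix 3. The matrix share of UMIs was 5.19% without Scrublet-marked barcodes, 4.67% with at least 4 genes, 4.84% without members of 25% or more hormone UMIs, 4.68% without those with 2 or more mural markers, 4.60% without those with 3 or more macrophage markers, 5.83% without the hormone-rich subset, 4.96% with hormone and mitochondrial genes left out of the totals, 5.33% as the mean of the members' own CPM, and 4.39 to 4.62% leaving out suffixes. The count of genes at least 2-fold higher than every other class was 330 of 16579 tested with the mural class and 580 of 16579 without it. It was 674 of 16566 without both the mural class and the hormone-rich subset, and 168 of 12394 with at least 100 UMIs. With sums thinned to the smallest class, it was 34 of 1187 with 4 classes and 523 of 10933 without the mural class. Leaving out suffixes gave 353 to 391, of 15624 to 16050 tested. Because the number tested differed, these counts cannot be compared by themselves. A resolution of 1.0 gave 8 clusters and removing Scrublet-marked members gave 5, and both divided subset 1 (33.9% and 66.5% of it in its best cluster). Of 196 named genes with at least 100 UMIs, at most 14 moved by over 1.5 times in any alternative. The alternatives of the hormone-rich subset, macrophage markers and mural class were chosen after seeing the data. No paired analysis was possible because no source used here ties the barcode suffixes to libraries. With 344 cells, genes under 20 UMIs give no usable level.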

Other observations

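Some genes listed as markers of another class were also seen in the fibroblasts. Sox9, a factor of stem cells and of cartilage, was seen in 33.7% of fibroblasts (177 CPM, against 131 CPM in endothelial and 529 CPM in stem or folliculostellate cells) and in 2.42% of T and NK cells, while Sox2, Aldh1a2 and Cyp2f2 had 1, 20 and 4 UMIs in all fibroblasts. A fibroblast could carry at most 1 of these genes, so the choice barred the others wherever Sox9 was seen. Fxyd1, listed as a stem cell marker, had 224 CPM in the fibroblasts, against 59.8 CPM in stem or folliculostellate cells, and S100b 45.5 against 0.388 CPM, with 178.5 CPM in subset 2. Of the 6 tested genes of that list outside the choice, 2 were higher in the fibroblasts and 2 lower. The whole list summed to 745 CPM in the fibroblasts, against 5478 CPM in stem or folliculostellate cells. This sum includes the genes limited in the one class and required in the other, so the choice set a part of the gap.

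Col1a2 was seen in 31.7% of barcodes with at least 25% Gh (median 10502.5 UMIs) but in 4.63% of T and NK cells (median 2299.5 UMIs), whereas Col1a1 was seen in 0.445% and 0.661% of them. In stem or folliculostellate cells Col1a2 had 1621 UMIs and Col1a1 had 3. These cells could carry at most 1 of the 5 chosen genes, so the choice kept Col1a1 out of any cell with Col1a2.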
